A study of Mus musculus with 46 samples.

Results

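The clustered protocadherins are cell surface adhesion proteins of neurons, encoded in mouse by the alpha, beta and gamma gene clusters that lie side by side on chromosome 18. Of 22800 gene symbols in the deposited counts, 22 had the symbol of an individual clustered protocadherin isoform, Pcdhb1 to Pcdhb22, which is the whole beta cluster and no member of the others. The alpha and gamma isoforms were therefore taken from the companion counts by Ensembl identifier, which hold 14 alpha and 21 gamma isoform genes, so that 57 isoform genes were described in 46 cells. The alpha cluster spans positions 36930184 to 37187661 of chromosome 18 in GRCm38, the beta cluster 37264938 to 37524479 and the gamma cluster 37661793 to 37841873, all in the annotation GENCODE M21 and on the forward strand.

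Each isoform gene has its own promoter and a large variable exon, which codes for the extracellular cadherin repeats. In the alpha and gamma clusters the variable exon is spliced to constant exons that all isoforms of that cluster share, whereas each beta gene is a transcript unit of its own. The choice of promoter is known to involve DNA methylation, the DNA-binding protein CTCF and cohesin, and the proteins bind between cells in a homophilic way, so that neurons with different sets can be told apart. The 5 genes at the ends of the alpha and gamma clusters, Pcdhac1, Pcdhac2, Pcdhgc3, Pcdhgc4 and Pcdhgc5, are called C-type and are known to be regulated apart from the others. Pcdhgc4 is known for its part in the survival of cortical interneurons.

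The cells were 46 single oriens-lacunosum moleculare (OLM) interneurons, somatostatin-expressing inhibitory neurons of the hippocampus, from mice of postnatal day 21 to 30. The cytosol of each cell was aspirated through a patch-clamp pipette, and 23 cells came from an Htr3a Cre driver line and 23 from an Sst Cre driver line. The labels name no treatment, no other allele and no animal, so several cells may come from 1 mouse. For that reason a line counts as a single sample here, the lines are compared without p-values, and all SDs are between cells or between pairs of cells. Such an SD gives the spread of single cells or pairs, not the uncertainty of a mean or median. A line difference smaller than it therefore does not show that the lines are alike. Total counts were 3391829 to 26136222 per cell in the Htr3a line (median 15336981) and 5639490 to 31386369 in the Sst line (median 16726879), with a median of 8169 and 6569 genes read. Sst, Crhbp, Gad1 and Gad2 were read in 46 of 46 cells. In the Htr3a line, replicate 10 had the most genes read (12693), and replicates 4 and 20 had 4 and 24 reads of Gad1, an enzyme of GABA synthesis. Replicate 4 also had the highest summed level of the 6 oligodendrocyte markers, 13314 CPM (reads per 1000000 reads of the cell).

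The alpha and gamma counts were made of shared and own reads. In the 35 cells with alpha reads common to the cluster, at least 9 and a median of 13 of the 14 alpha genes had exactly the same count. In the 43 such cells of the gamma cluster, at least 14 and a median of 18 of the 21 genes did. This common count was taken as the reads of the constant exons (2860 bp in alpha, 2116 bp in gamma), and the excess over it as the own reads of an isoform gene. This split was chosen after the counts were seen. An isoform gene counts as read in a cell when it had at least 1 own read (for a beta gene, at least 1 read). The symbol rows named Pcdha and Pcdhg, which hold no single isoform, were left out.

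Most isoform genes were not read in most cells. Of 2622 combinations of gene and cell, 338 had a read (12.9%), and 90 of those had fewer than 10 reads (26.6%). Most of all 22800 symbols were also unread in a typical cell, with medians of 8169 read in the Htr3a line and 6569 in the Sst line. The Htr3a line was thus also the higher in the number of all genes read. A cell of the Htr3a line had from 1 to 24 of the 57 isoform genes, with a median of 8 and a mean of 8.61 ± 5.66 (SD, n = 23). A cell of the Sst line had from 1 to 15, with a median of 5 and a mean of 6.09 ± 3.81 (SD, n = 23). The ranges of the lines overlapped over all but the top values, and the mean of the Sst line minus that of the Htr3a line, -2.52 genes, was smaller in size than either SD. With at least 10 reads required, the medians were 6 and 4. With at least 10 CPM required, they were 5 and 4, and the means 4.17 and 3.91.

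**Figure D1:**
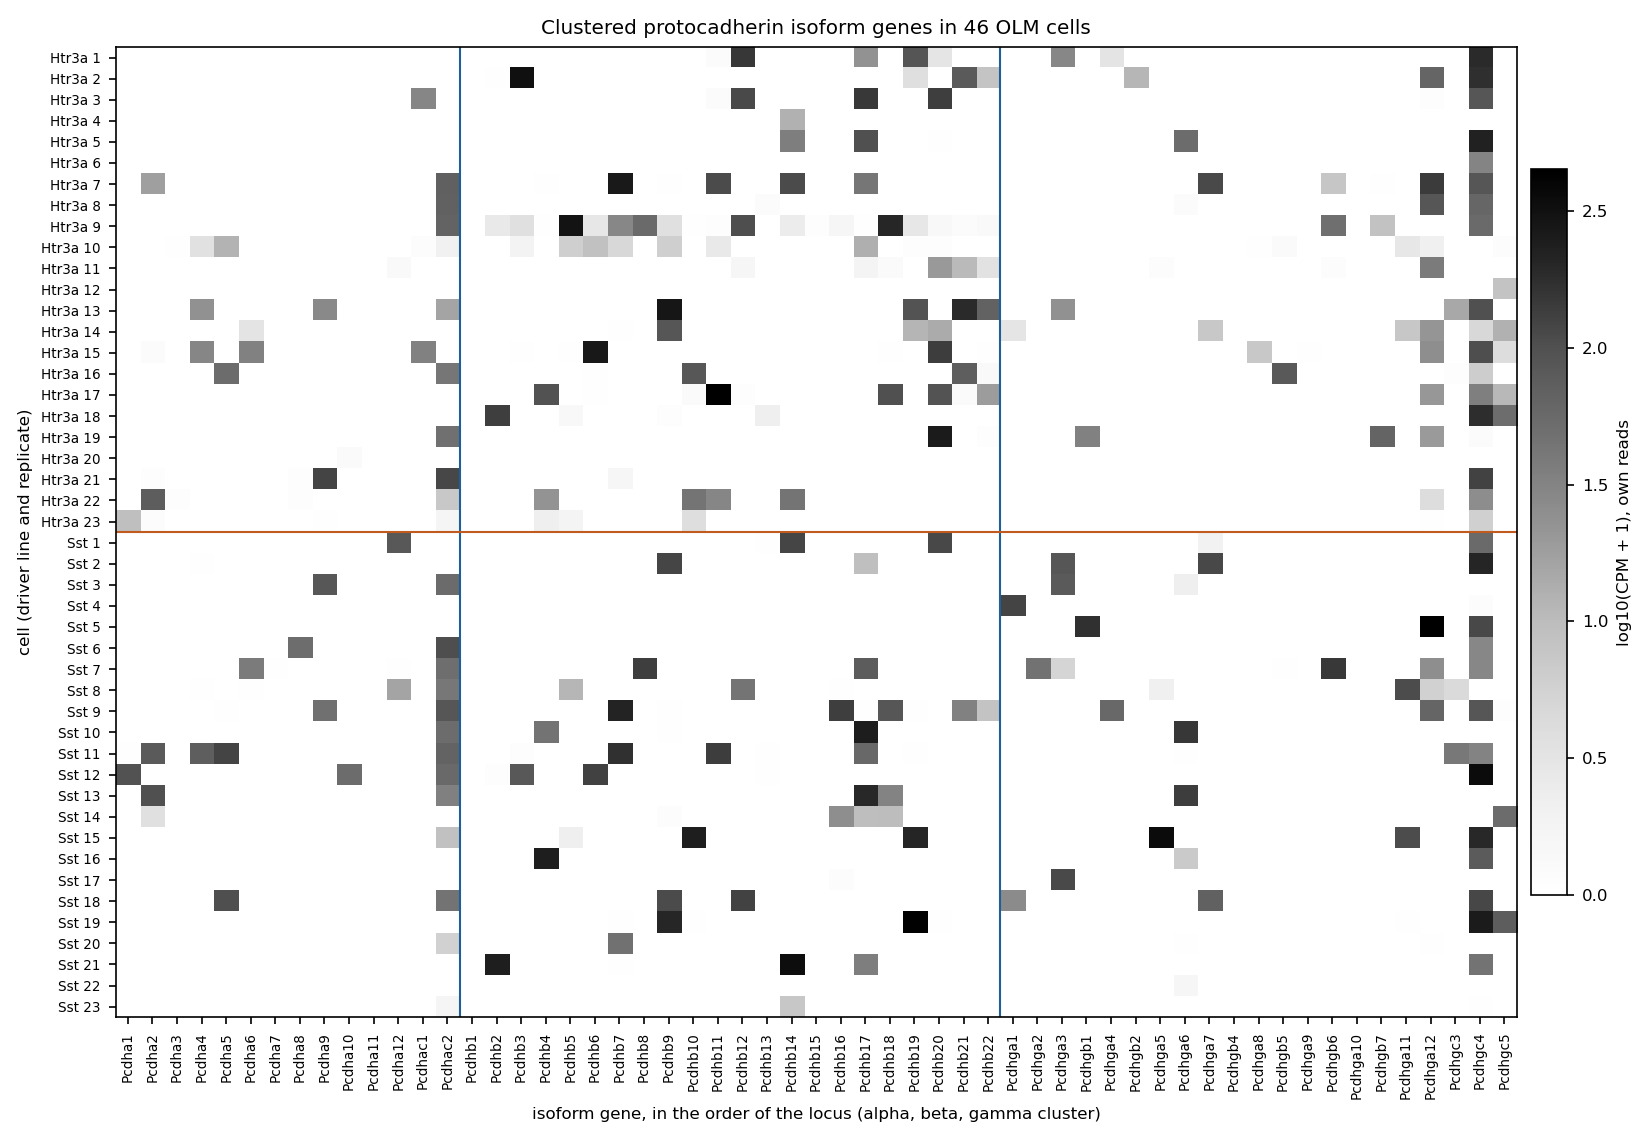
Own reads of each of 57 isoform genes (columns, in the order of the locus, blue lines between the clusters) in each of 46 cells (rows, Htr3a line above and Sst line below the orange line), as log10(CPM + 1) in grey, with white for 0. Most of the grid is white, and the columns of Pcdhac2 and Pcdhgc4 are filled in 23 and 33 cells.

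The beta cluster gave the widest range of numbers. Htr3a-line cells had 0 to 20 of the 22 beta genes (median 4, mean 4.39 ± 4.25, SD, n = 23), and 3 of these cells had none. Sst-line cells had 0 to 8 (median 2, mean 2.39 ± 2.10, SD, n = 23), and 5 had none. The line difference in mean number, -2 genes, was smaller in size than either SD. With a stricter minimum the means lay closer, 2.91 and 1.65 at 10 reads and 1.91 and 1.39 at 10 CPM, where both medians were 2.

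Htr3a line replicate 9 stood apart from the other cells in its beta genes. It held 20 of the 22, all but Pcdhb1 and Pcdhb13, and the next highest cells held 9. In this cell Pcdhb5 had 5755 reads, Pcdhb18 had 3870, Pcdhb12 had 1987, Pcdhb8 had 1050 and Pcdhb7 had 544, whereas the other 15 beta genes had from 1 to 51 reads each. With 10 reads required it held 12 beta genes. It had 6754 genes read in all, below the median of its line (8169), and 19291546 total reads, above the median of its line (15336981). Without it the line difference in the mean number of beta genes was -1.29 in place of -2, and the Htr3a-line median was 4 as before.

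Alpha numbers were lower than beta numbers in both lines, and gamma numbers were lower in the Htr3a line. In the Sst line the gamma and beta medians were both 2, and at 10 CPM the gamma mean (1.52) was above the beta mean (1.39). Alpha and gamma medians were close between lines. Htr3a-line cells had 0 to 5 alpha genes (median 1, mean 1.52 ± 1.65, SD, n = 23) and Sst-line cells also 0 to 5 (median 1, mean 1.48 ± 1.47, SD, n = 23). No alpha gene was read in 8 and 7 cells. Gamma genes numbered 0 to 6 in the Htr3a line (median 3, mean 2.70 ± 1.58, SD, n = 23) and 1 to 6 in the Sst line (median 2, mean 2.22 ± 1.31, SD, n = 23). The 2 cells with no gamma gene were Htr3a line replicates 4 and 20, the cells with the fewest Gad1 reads. Replicate 4 had only Pcdhb14 and replicate 20 only 1 read of Pcdha10. At 10 CPM the sign of the small line difference turned in both clusters, with 0.217 more alpha and 0.0435 more gamma genes per Sst-line cell. Without Htr3a line replicate 10, the mean number of alpha genes was 0.115 higher in the Sst line.

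**Figure D2:**
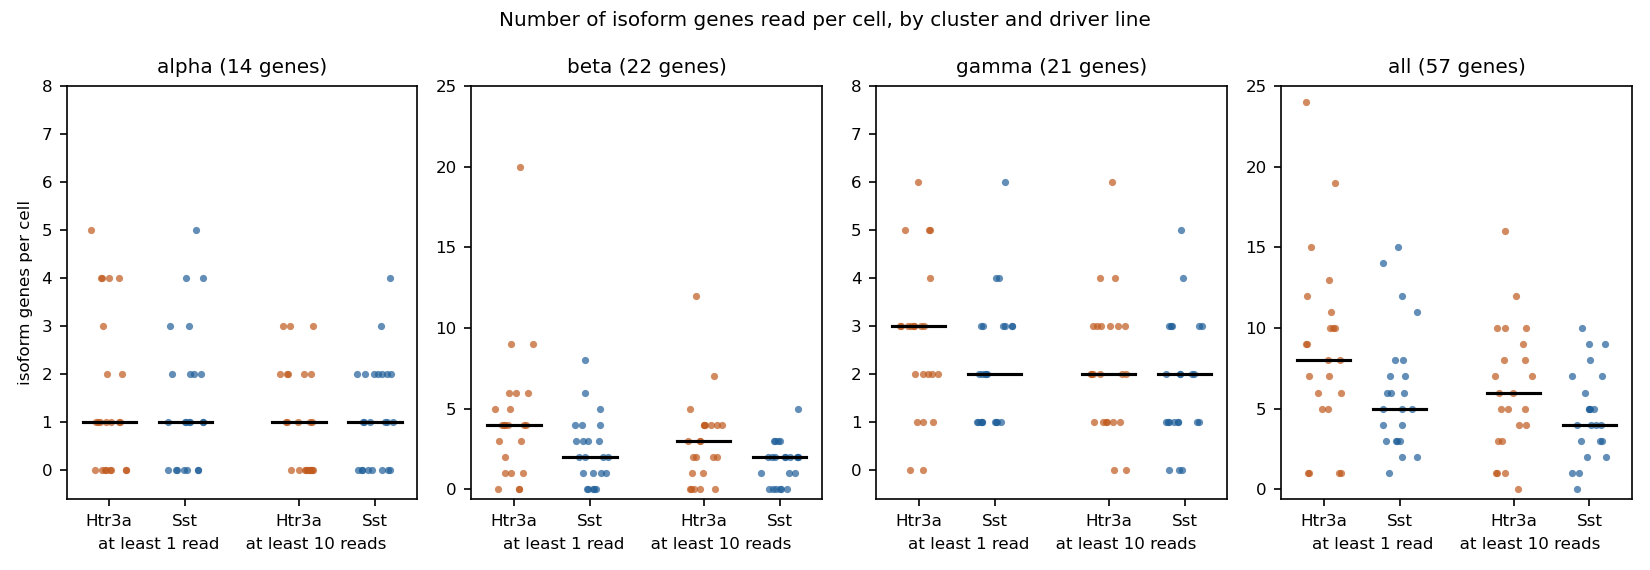
Isoform genes per cell (vertical axis, number of genes) in the alpha, beta and gamma clusters and in all 3, at a minimum of 1 read and of 10 reads. Each point is 1 cell, orange for the 23 cells of the Htr3a line and blue for the 23 of the Sst line, spread sideways at random, and bars are medians. The points of both lines overlap in every panel, and Htr3a line replicate 9 is the point at 20 beta genes.

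Cells with more genes read also tended to have more isoform genes. Across the 46 cells, Pearson's r between them was 0.63 and Spearman's rho 0.68, and r was 0.54 without the 2 cells farthest from the median in genes read. Against total reads r was 0.35 and rho 0.38. Both numbers come from the same library, and cells of 1 line share whatever the line shares, so these are descriptions. With every cell thinned to 5000000 reads (45 cells, 1 shallower left out), the medians were 8 and 4 isoform genes and the line difference in means was -2.55. For the summed markers of 6 other cell classes (pyramidal neurons, microglia, oligodendrocytes, their precursors, astrocytes and vascular cells), r with the number of isoform genes lay between -0.21 and 0.13.

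**Figure D3:**
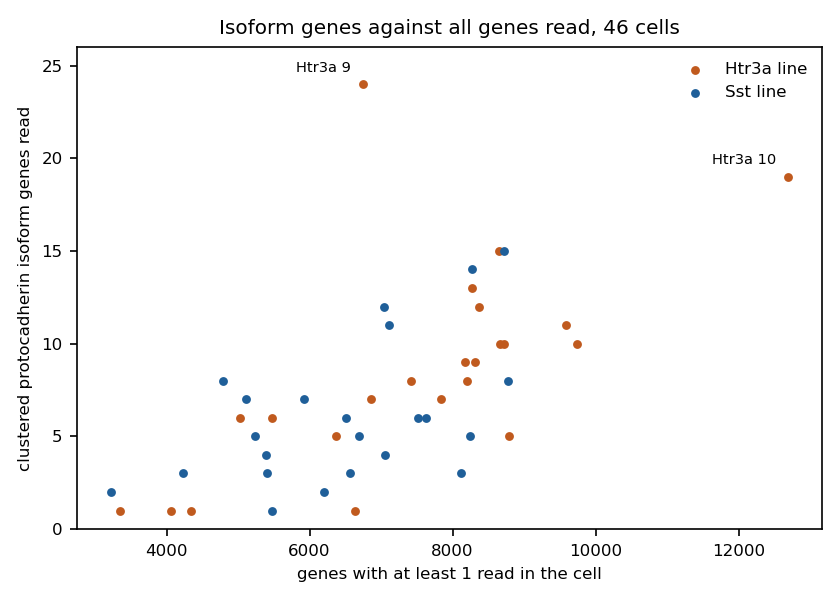
Number of clustered protocadherin isoform genes read (vertical axis) against all genes with at least 1 read (horizontal axis) in 46 cells, orange for the Htr3a line and blue for the Sst line. The points climb together (r = 0.63), with Htr3a line replicate 9 at 24 isoform genes above the other cells and replicate 10 at 12693 genes on the right.

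The C-type genes were the most widely read members, through Pcdhgc4 and Pcdhac2. Pcdhgc4 (positions 37815079 to 37841873, last but 1 gene of the gamma cluster) was read in 33 of 46 cells, 71.7% (95% Clopper-Pearson interval 56.5 to 84.0%, here and below for counting error only). Its CPM in the Htr3a line ranged from 0 to 223 with a median of 33.9, and in the Sst line from 0 to 350 with a median of 28.4. Reads were found in 18 cells of the Htr3a line and 15 of the Sst line, and the ranges overlapped. Its 54308 own reads were more than those of any other isoform gene, also per kb of own exon (21.9 CPM per kb over all cells, against 7.42 for Pcdhac2 and 7.34 for Pcdhb9). Without Htr3a line replicates 4, 10 and 20 the line difference of Pcdhgc4, the mean of log2(CPM + 1) in the Sst line minus that in the Htr3a line, was -1.21 in place of -0.57. On CPM of counts summed over a line it was 0.35, so that the direction rested on the way of averaging.

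Pcdhac2, the last gene of the alpha cluster (start at position 37143503), was read in 23 of 46 cells, 50% (95% Clopper-Pearson interval 34.9 to 65.1%). It had at least 10 reads in each of these. The Htr3a line had 10 of these cells, with a highest CPM of 115, and the Sst line 13, with a highest CPM of 103. Its line difference was 0.86 on the log2 scale, smaller than the pooled SD between cells (2.75), and 0.68 to 1.08 with each cell left out in turn. Pcdhgc4 and Pcdhac2 were read together in 17 cells, either in 39 and neither in 7.

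The other C-type genes were read in few cells. Pcdhgc5 was read in 9 cells (6 Htr3a, 3 Sst), Pcdhgc3 in 4 (2 and 2) and Pcdhac1 in 3 (3 and 0). Each of the 4 cells with Pcdhgc3 also had Pcdhac2. A cell had 0 to 3 C-type genes, with none in 5 cells, 1 in 16, 2 in 19 and 3 in 6.

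**Figure D4:**
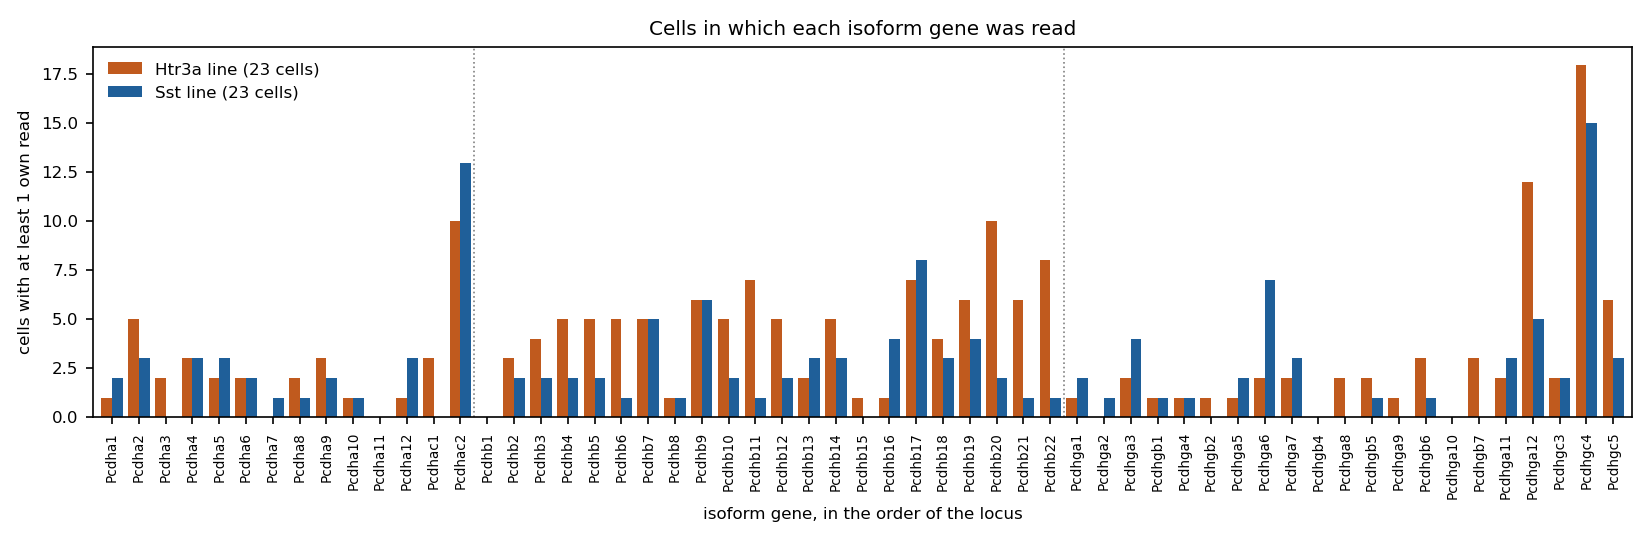
Number of cells with at least 1 own read (vertical axis, of 23 per line) of each isoform gene (horizontal axis, in the order of the locus, dotted lines between clusters), orange bars for the Htr3a line and blue for the Sst line. Pcdhgc4 (18 and 15 cells), Pcdhac2 (10 and 13) and Pcdhga12 (12 and 5) are the tallest.

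The other members of each cluster were read in scattered cells. In the alpha cluster the 12 genes that are not C-type were read in 0 to 8 cells each (median 3.5), led by Pcdha2 in 8 cells, Pcdha4 in 6 and Pcdha9 and Pcdha5 in 5 each, and 23 cells had none of the 12. Pcdha2 had at least 10 reads in only 5 of its 8 cells. Of the exon bases of Pcdha4 that are its own, 86.1% overlap another annotated gene, so reads there cannot be told apart from those of that gene. The same holds for 63.5% of the own exon bases of Pcdhb12, 52.4% of Pcdhga11, 46.1% of Pcdhgc3 and 16.4% of Pcdhgc5. Among further genes it holds for 29.7% of Pcdhgb7, 24.8% of Pcdha6, 21.5% of Pcdha12, 17.3% of Pcdhga7, 16.6% of Pcdhga8 and 9.28% of Pcdhga12.

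In the beta cluster, 21 of 22 genes were read in 1 to 15 cells, with a median of 7 over the 22. Only 3 of the 22 were read in at least 12 cells, against 43.9% of all symbols, and 1 was read in 0 cells, against 29.7% of all symbols. Pcdhb17 was read in 15 cells (7 Htr3a, 8 Sst), Pcdhb9 in 12 (6 and 6) and Pcdhb20 in 12 (10 and 2). The highest CPM of Pcdhb17 was 149 in the Htr3a line and 246 in the Sst line, and for Pcdhb9 these were 281 and 202. The first 11 genes of the cluster accounted for 70 of the 156 combinations of beta gene and cell with a read, and the last 11 for 86. Pcdhb21 and Pcdhb22, whose exons overlap by 455 bp, were read together in all 7 cells with Pcdhb21. Beta reads were not split into shared and own, so a read in these 455 bp may count for both genes and add 1 beta gene to a cell. Pcdhb21 was read in 6 Htr3a-line cells and 1 Sst-line cell, and Pcdhb22 in 8 and 1. The share of the overlap in the line difference in beta number was not tested. The other neighbouring beta genes were read together in at most 5 cells.

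Among the 12 gamma A genes at least 1 was read in 33 cells, among the 6 gamma B genes in 9 (7 Htr3a, 2 Sst) and among the 3 gamma C genes in 37. Pcdhga12, the last gamma A gene, was read in 17 cells (12 Htr3a, 5 Sst), Pcdhga6 in 9 (2 and 7) and Pcdhga3 in 6 (2 and 4). The gamma C genes held 56.4% of all own gamma reads, gamma A 35.6% and gamma B 7.92%.

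No read was found for Pcdha11, Pcdhb1, Pcdhgb4 and Pcdhga10. For each, 0 of 46 cells allows a share of cells with a read of up to 6.52% by the limit of 3 counts, or of up to 7.71% by the Clopper-Pearson interval. In the case of Pcdhga10, all of its own exon bases (100%) overlap another annotated gene, and for Pcdha11 72.9% do. The own exon of Pcdhgb4 overlaps another isoform gene by 108 bp, and that of Pcdhb1 overlaps no other gene.

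Within a cell, 1 isoform gene usually held most of the cluster's own reads. In the 31 cells with own alpha reads the leading gene held 34.6 to 100% of them (median 90.6%). In the 44 cells with own gamma reads it held 40.6 to 100% (median 87.4%). In the 38 cells with beta reads it held 31.6 to 100% (median 62.5%). A cell with few own reads can reach 100% more easily. With at least 50 own reads of the cluster required, the medians were 74.4% for alpha (26 cells, 90.6% in the Htr3a line and 69.3% in the Sst line), 86.0% for gamma (41 cells) and 60.3% for beta (35 cells). Per kb of own exon and with at least 1 own read the medians were 91.8, 87.8 and 70.0%, and the leading gene was the same in 31 of 31, 41 of 44 and 33 of 38 cells.

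Which gene led differed between the clusters. Among cells with at least 50 own reads of the cluster, Pcdhgc4 led in 22 of 41 cells for gamma (13 Htr3a, 9 Sst) and Pcdhac2 in 11 of 26 for alpha (4 and 7). In the beta cluster 16 different genes led in 35 cells, with Pcdhb14 and Pcdhb17 leading in 5 each.

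Reads of the constant exons were found in most cells. At least 100 shared gamma reads were present in 41 cells, and all 41 had own reads of 1 to 6 gamma genes (median 3). At least 100 shared alpha reads were present in 30 cells, and 28 of them had own reads (median 2 alpha genes, highest 5). The own reads could be few. Sst line replicate 23 had 2045 shared gamma reads and 1 own read, of Pcdhgc4, and Htr3a line replicate 10 had 1179 shared and 64 own reads. Shared gamma levels had a median of 80.5 CPM in the Htr3a line (range 0 to 272) and 129 CPM in the Sst line (0 to 492). Shared alpha levels had medians of 38.2 CPM (0 to 233) and 60.1 CPM (0 to 277). The summed beta level had medians of 135 CPM in the Htr3a line (0 to 753) and 208 CPM in the Sst line (0 to 638), whereas the means were 220 ± 244 and 193 ± 201 CPM (SD, n = 23 each) and the means of log2(CPM + 1) 5.74 and 5.51, so that the median and the mean put the lines in opposite orders. For the shared gamma reads the means of log2(CPM + 1) were 6.10 and 6.15, and for the shared alpha reads 4.17 and 4.32. The lines overlapped over nearly the whole range in each of the 3 measures.

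The sets of isoform genes were different in all 46 cells: 46 distinct sets were found. Sets of other genes read in as few cells were not compared, so distinct sets and low overlap cannot be called particular to these genes. Between 2 cells, overlap was measured by the Jaccard index, the genes read in both divided by the genes read in either. Over 1035 pairs of cells its median was 0.118 and its highest value 0.583, and 246 pairs (23.8%) shared no isoform gene. The median pair shared 1 gene. Pairs within the Htr3a line had a median index of 0.130 (253 pairs), pairs within the Sst line 0.118 (253 pairs) and pairs between the lines 0.111 (529 pairs). These medians differed by less than the SD between pairs, which was 0.106 within the Htr3a line and 0.0951 within the Sst line, and pairs that share a cell are not independent. The largest number of shared genes was 10, in 4 pairs that all included Htr3a line replicate 9. The highest index belonged to Htr3a line replicate 14 and Sst line replicate 19, which shared 7 genes, Pcdhb7, Pcdhb9, Pcdhb19, Pcdhb20, Pcdhga11, Pcdhgc4 and Pcdhgc5.

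Much of the overlap lay in the C-type genes, which include the 2 most widely read isoform genes, Pcdhgc4 (33 cells) and Pcdhac2 (23 cells). Leaving out widely read genes lowers the overlap by construction. No other genes read as widely were left out for comparison, so the fall is not a result about the C-type class. Without them, 537 of 1035 pairs (51.9%) shared no gene and the median index over all pairs was 0. The 44 cells that still had a gene then held 43 distinct sets. The 1 repeated set was a single gene, Pcdhb14, in Htr3a line replicate 4 and Sst line replicate 23. Among the 703 pairs of cells that both had beta genes, 49.2% shared none. That share was 41.6% within the Htr3a line, 59.5% within the Sst line and 48.9% between lines. Cells of the Htr3a line held more beta genes each, so the shares are not free of the difference in number.

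**Figure D5:**
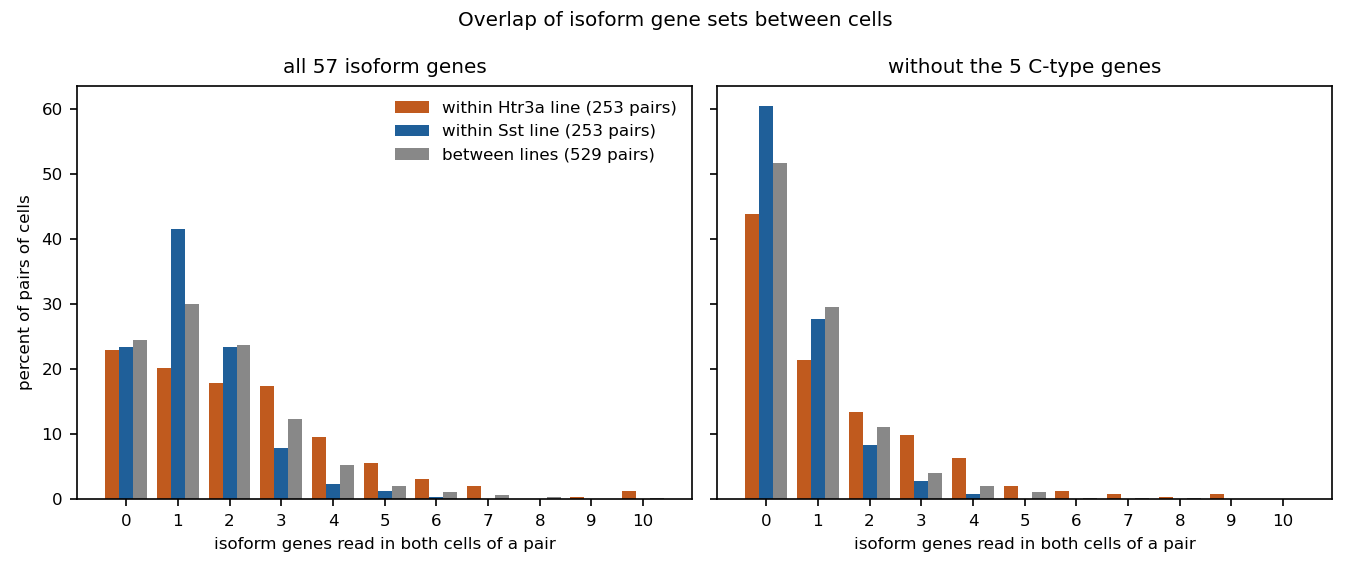
Percent of pairs of cells (vertical axis) by the number of isoform genes read in both cells (horizontal axis), for all 57 genes (left) and without the 5 C-type genes (right). Orange bars are 253 pairs within the Htr3a line, blue bars 253 pairs within the Sst line and grey bars 529 pairs between lines. With the C-type genes left out, sharing none is the commonest outcome in each kind of pair.

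Genes were also compared by the cells they were read in together. Of 1596 pairs of isoform genes, 809 (50.7%) were never read in the same cell, which includes every pair with 1 of the 4 genes read in no cell. Among the 53 genes with a read it was 591 of 1378 pairs (42.9%). The median gene was read in only 3.5 cells in the alpha, 7 in the beta and 3 in the gamma cluster, and genes read in few cells seldom coincide. Pairs of other genes read in as few cells were not compared, so these shares cannot be called particular to the isoform genes. After Pcdhgc4 with Pcdhac2, the pairs read together in most cells were Pcdhgc4 with Pcdhga12 (13 cells), Pcdhac2 with Pcdhga12 (10), and Pcdhgc4 with Pcdhb17 and with Pcdhb20 (10 each). Each of these genes was read in at least 12 cells, and genes read in many cells share cells on that account alone. Whether the pairs shared more cells than that was not tested. The numbers of beta and gamma genes in a cell had a Pearson's r of 0.40 and a Spearman's rho of 0.55 over the 46 cells, with a rho of 0.69 in the Htr3a line and 0.23 in the Sst line. For alpha and gamma these were 0.38 and 0.33 over all cells, and for alpha and beta 0.19 and 0.26. The cells come from libraries that also differ in genes read, and the difference between lines was not tested.

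How many members differed in level between the lines by more than 2-fold rested on the way of averaging. Of the 22 beta genes, 11 had a mean log2(CPM + 1) of at least 0.5, a minimum that a gene could also pass through 1 line alone. Of these, 1 lay past a 2-fold line difference in the direction lower in the Sst line, against 14.9% of all 11196 genes above the minimum, and 0 lay past it in the direction higher in the Sst line, against 4.24%. The median line difference of the 11 was -0.15, and that of all genes -0.22. The 1 gene was Pcdhb20 (positions 37504264 to 37507822), with reads in 10 cells of the Htr3a line at up to 248 CPM and in 2 of the Sst line at up to 112 CPM. Its median was 0 CPM in both lines, and its line difference was -1.41 (-1.70 to -1.12 with each cell left out in turn), smaller in size than the pooled SD between cells (2.24). On CPM of counts summed over a line, which lets single cells with many reads weigh more, 5 of the same 11 genes lay past 2-fold lower in the Sst line, against 10.7% of all genes, and 3 higher, against 9.83%. The 5 were Pcdhb21 (-2.75), Pcdhb11 (-2.03), Pcdhb12 (-1.77), Pcdhb20 (-1.56) and Pcdhb18 (-1.27), and the 3 were Pcdhb14 (1.54), Pcdhb19 (1.44) and Pcdhb4 (1.24). Each of these 8 genes was read in 1 to 4 cells of the Sst line and 4 to 10 of the Htr3a line. On the own reads of the alpha and gamma genes, Pcdhga12 had a line difference of -1.03 (pooled SD 2.47), with a highest CPM of 139 in the Htr3a line and of 447 in the Sst line. Its sign was the opposite, 0.14, on counts summed over a line, and it was not past 2-fold with 27 of the 46 cells left out in turn, lowest in size (-0.80) without Htr3a line replicate 7.

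Genes known to act on the clusters or with their proteins were also looked at, from lists of textbook roles. Of 10 listed CTCF and cohesin genes, 9 were in the counts, each was read in 22 to 31 cells, and Ctcf itself in 31. Past a 2-fold line difference, 1 of the 9 was higher in the Sst line (Stag1, a cohesin subunit, 1.20) and 2 were lower (Nipbl, the cohesin loader, -1.55, and Stag2, a cohesin subunit, -1.25), where 4.24% of all genes were higher and 14.9% lower. The median of the 9 was 0.20, against -0.22 over all genes. Stag1 was just under 2-fold (0.99) without Sst line replicate 20, and on counts summed over a line Nipbl (-0.38) and Stag2 (-0.84) were under it. Of 10 genes of chromatin and DNA methylation, 8 were read in at least 12 cells. The largest line differences among these belonged to the DNA methyltransferase Dnmt3a (-0.99, near the limit and past it with 20 of the 46 cells left out in turn) and to Tet1 (-0.46) and Tet3 (-0.44), which oxidise methylated cytosine. The methyltransferase Dnmt3b was read in 0 cells. Of the 9 above the minimum, 1 gene lay past 2-fold lower in the Sst line and 0 higher, against the same shares of all genes. This was Rest, a repressor of neuronal genes, with reads in 8 cells of the Htr3a line and 0 of the Sst line, so that no fold is given. The median of the 9 was -0.37.

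Of 17 genes of intracellular partners and of processing, 16 were read in at least 12 cells, with a median line difference of -0.40, against -0.22 over all genes. In the Sst line 4 of the 16 lay past 2-fold below the Htr3a line, against 14.9% of all genes, and 0 above it, against 4.24%. The 4 were Adam10, a protease that sheds protocadherins (-2.05), Wasf1 of the WAVE actin complex (-1.58), Ptk2, a focal adhesion kinase (-1.43), and Cyfip1, also of the WAVE complex (-1.20). On counts summed over a line Adam10 (-0.76), Wasf1 (-0.67), Ptk2 (-0.28) and Cyfip1 (-0.10) were all under 2-fold. Reads of Adam10 were found in 14 cells of the Htr3a line and 7 of the Sst line. The 12 non-clustered protocadherins, single genes outside the clusters, were read in 1 to 36 cells each (median 24), led by Pcdh9. Past 2-fold, 1 of the 10 above the minimum was lower in the Sst line (Pcdh17, -1.01) and 0 higher, against 14.9% and 4.24% of all genes, and the next largest differences were Pcdh19 (0.72) and Pcdh8 (0.59). Pcdh17 was not past 2-fold with 27 of the 46 cells left out in turn. On counts summed over a line it lay at -0.41, and Pcdh11x (2.40) and Pcdh18 (1.18) were past 2-fold higher. The median line difference of the 10 was 0.24.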

How the data were processed

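Raw read counts per gene, by symbol and by Ensembl identifier, and a normalized signal per gene were deposited by the authors. Per the submitters' processing notes, the tools were Trimmomatic, STAR and featureCounts and the build GRCm38. Versions and strandedness were not given in the sources used here. The authors' normalized signal equals the count over a cell-specific factor and served as an alternative scaling only.

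CPM were taken over all symbol rows of a cell, and levels as log2(CPM + 1). The shared count of the alpha or gamma cluster in a cell was the commonest count over its genes. In 1 cell it lay 1 read above the lowest gamma count. The 22 beta genes had the same counts in both tables. GENCODE M21 gives the symbol Pcdha11 to 2 genes, and 1 of them was named Pcdha10 by its RefSeq position. Another gamma gene was not analysed here.

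The members, gene lists and rules were chosen with earlier results of these data known. Named are the 5 C-type genes, the 3 other members per cluster read in most cells, members read in 0 cells or past a 2-fold line difference, and up to 3 genes per list with the largest line difference among those read in at least 12 cells. Other genes were named after their values were seen. Near-identical variable exons may exchange reads, and without molecular identifiers reads are not independent molecules. Scripts (Python 3.11.15, R 4.3.3) were tested on simulated data, and edgeR 4.0.16 and DESeq2 1.42.0 gave size factors for alternative scalings only.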

Additional observations from a re-analysis of the deposited data

How the results depend on the processing

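No paired analysis was possible because the replicate numbers are names in accession order and no animal is named. Medians of isoform genes per cell moved most at 10 CPM, from 6.5 to 4 over all cells and 8 to 5 in the Htr3a line, for beta from 4 to 2 in the Htr3a line, for alpha from 1 to 0 in both lines, and for gamma from 2 to 1 in the Sst line. The alpha median was 2 in place of 1 in cells with at least 100 shared reads. Medians of cluster levels and of leading shares moved by less than 1.5 times under every alternative run. The count of cells with no gamma gene was 5 with at least 5 or 10 reads and 8 with at least 10 CPM, in place of 2, and 0 both without Htr3a line replicates 4, 10 and 20 and in cells with at least 100 shared reads. That of cells with no alpha gene was 24 with 10 CPM and 2 in cells with at least 100 shared reads, in place of 15, and that with no beta gene was 13 with 10 CPM, in place of 8. The latter choice of cells by shared reads, leaving out the C-type genes and leaving out Htr3a line replicate 9 were added after seeing the data. Fewer cells pass a stricter minimum by construction. The median Jaccard index within the Sst line was 0 at 10 CPM, and without the C-type genes it was 0 over all pairs, within the Sst line and between lines. The count of beta genes past 2-fold lower in the Sst line was 0 with a pseudocount of 10 or an expression minimum of 2 (which no beta gene passed). On counts summed over a line it was 5, with 3 higher, against 10.7% and 9.83% of all genes. Pcdhga12 turned to 0.14 on summed counts, and the cause was not tested. With each cell left out in turn, cells with no gamma gene numbered 1 to 2 (1 without Htr3a line replicate 4 or 20) and beta genes lower past 2-fold 1 to 2 (2 without Sst line replicate 9). A gene at 0 in a cell was not detected there, which does not show that its RNA was absent from the cell.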
